A study of Homo sapiens with 12 samples.

Results

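LAST-seq and CEL-seq2 were compared gene by gene in single cells of HEK293T, a line of transformed human embryonic kidney cells. Of the 12 samples of the series, 4 were used, 2 libraries of LAST-seq and 2 of CEL-seq2, each a pool of 10 sorted and indexed cells, which gave 20 cells per assay. LAST-seq replicate 1 carried the A60 RNA spike-in mix and LAST-seq replicate 2 the ERCC mix. CEL-seq2 replicate 1 carried both mixes and CEL-seq2 replicate 2 the ERCC mix. The sources used here name no drug treatment of the cells, which were stained with a dye before sorting to exclude dead cells. Different cells were sorted for each library, so a difference between assays and a difference between the sorted cells cannot be told apart. For each assay, 1 library of HEK293T lysate was set beside the single cells, with no test.

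Both assays start from the poly-A tail at the 3′ end of an RNA and amplify linearly with T7 RNA polymerase. In CEL-seq2, an oligo-dT primer starts reverse transcription, a second strand is made, and the double-stranded DNA is transcribed. In LAST-seq, the tail anneals to a primer overhang of ribo-U and deoxy-T, RNase H nicks the tail, and a polymerase adds the T7 promoter, so that the RNA itself stays single-stranded and serves as the template of transcription. Every transcript counted by LAST-seq must therefore pair with the overhang, whose capture stretch is printed here because all families below met it. Its 26 capital letters, 7 T and 19 U, are those that pair with the tail.
LAST-seq capture stretch: ccTTTTTTTUUUUUUUUUUUUUUUUUUU

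The libraries held between 1424870 and 1554129 unique molecular identifiers (UMIs) on genes, and each single cell between 80558 and 195438. Genes with a UMI numbered 16101 and 16599 in the LAST-seq replicates and 23202 and 23029 in the CEL-seq2 replicates. Sequencing reads on genes numbered 6877822 and 6767840 in LAST-seq and 4213714 in CEL-seq2 replicate 1, so read depth was not equal between the assays. All 10 cell barcodes were shared between the libraries of an assay and none between assays. Of 11 markers of HEK293T, such as VIM and LIN28B, 7 had a UMI in each of the 4 libraries, and none was at 0 throughout. Their summed level was 632 and 646 CPM (UMI counts scaled to a common library total) in LAST-seq against 852 and 965 in CEL-seq2. Of 14 markers of other cell types, 7 were at 0 in each library, and the summed level was 13.3, 11.3 and 19.3 CPM in the first 3 libraries and 549 in CEL-seq2 replicate 2. AQP2, a water channel of the kidney, gave 781 UMIs in that library, spread over all 10 cells, and none in CEL-seq2 replicate 1. It was not alone. With at least 500 UMIs in one library and at most 5 in the other of the same assay, LY9 stood apart in CEL-seq2 replicate 2, CLEC18C, FGF11 and the unnamed gene ENSG00000270321 in CEL-seq2 replicate 1, and no gene in LAST-seq. FGF11 gave 7488 UMIs in CEL-seq2 replicate 1 and 0 in the other 3 libraries. These genes were chosen after their values were seen.

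Genes with a mean of at least 10 UMIs per library were tested with edgeR's quasi-likelihood test. A gene was called when its adjusted p was under 0.05 and its ratio had the same sign in all 4 pairs of libraries across the assays. A gene near 0 in an assay reached the filter only with the UMIs of the other, which fixed its direction. In every family below, the call and p-value of such a gene are a description and give no support to a direction. Scaled to total UMIs only, 684 of 10932 genes were higher in LAST-seq, which is 6.26%, and 1873 were higher in CEL-seq2, which is 17.1%. With scaling by trimmed means (TMM), which moved the median log2 ratio of all genes from -0.36 to -0.05, the counts were 1114 and 1379. The ratio was lower for longer transcripts (Spearman's rho across genes -0.23) and higher for GC-rich ones (rho 0.15), a description only, as genes are not independent replicates.

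A smooth trend on transcript length and GC was then taken off each gene's ratio. It ran from -1.29 to -0.06 on the log2 scale between the 5th and the 95th percentile of genes. Of the 10913 genes with a known length, 1444 were higher in LAST-seq beyond length and GC (13.2%) and 994 were higher in CEL-seq2 (9.11%). Log2 ratios below are those of LAST-seq over CEL-seq2 beyond length and GC, called adjusted log2 ratios, with their standard error from the fit over 2 libraries per assay. The median over all tested genes was 0.19, which is the level to read families against. The families were described by counts and medians, with no test of a family as a whole.

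What length and GC left behind followed expression level. In the 10% of genes with the fewest UMIs, from 10 to 13.75 per library, the median adjusted log2 ratio was -0.32, 2.83% of genes were higher in LAST-seq and 12.2% were higher in CEL-seq2. In the 10% with the most, the median was 0.72, and the shares were 40.3% and 11%. An alternative chosen after seeing the data added the mean level to the trend. It called 708 genes higher in LAST-seq (6.49%) and 826 higher in CEL-seq2 (7.57%), and moved the median to 0.05. The mean level is itself low for a gene near 0 in one assay, so this alternative also takes off part of such a gene's own difference. Counts under both are given for most families.

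**Figure D1:**
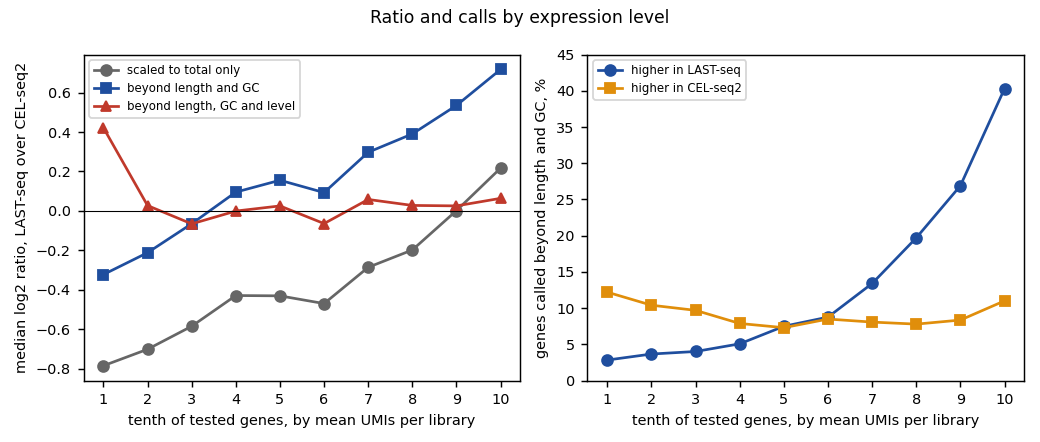
The left panel plots the median log2 ratio of LAST-seq over CEL-seq2 in 10 equal bins of the tested genes, ordered by mean UMIs per library, scaled to total only, beyond length and GC, and beyond length, GC and level. The right panel plots the percentage of each bin called higher in either assay beyond length and GC. The blue line climbs from -0.32 to 0.72, and calls for LAST-seq climb from 2.83% to 40.3% while calls for CEL-seq2 stay between 7.3% and 12.2%.

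The plot of family medians orders the gene families from those higher in LAST-seq to those higher in CEL-seq2. Mitochondrially encoded mRNAs, high mobility group proteins and the respiratory chain stood at one end. Replication-dependent histones, small RNAs of the nucleus and nuclear lncRNAs stood at the other.

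**Figure D2:**
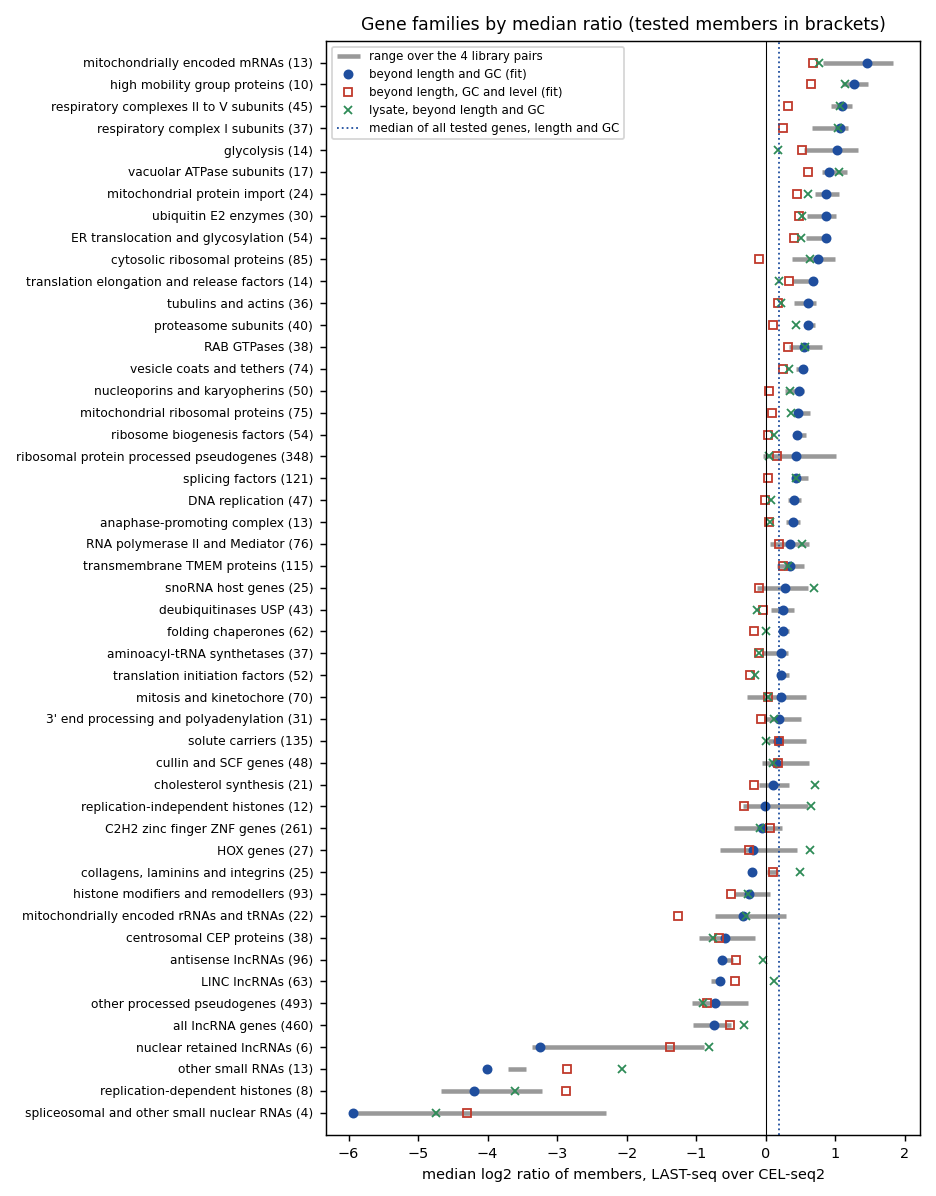
Each line is a gene family with its tested members in brackets, and the x axis is the median log2 ratio of its members, LAST-seq over CEL-seq2. Dots and squares are medians of fitted ratios, crosses the median between the lysate libraries, and grey bars the range over the 4 library pairs with 0.5 UMI added per gene, so dots of families with members near 0 can lie outside the bars. The dotted line marks the median of all tested genes at 0.19, and medians run from 1.45 for mitochondrially encoded mRNAs to -5.94 for small nuclear RNAs, or -4.22 with their members at 0 placed at a bound.

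Replication-dependent histone genes encode the core and linker histones that package newly made DNA in S phase. Their mRNAs are known to end in a conserved stem-loop rather than a poly-A tail, although longer polyadenylated forms occur. In the reference annotation (GENCODE 44 on GRCh38), the transcript of each of the 70 such genes held the histone 3′ stem-loop, 16 bases searched on the transcript strand, as did 0.174% of all tested transcripts. A match describes the annotated sequence and not the ends of the RNAs in these cells. The stem-loops of the 5 genes called higher in CEL-seq2 are shown in capitals, with up to 5 bases on each side in lower case, as the feature that sets these mRNAs apart.
H4C3: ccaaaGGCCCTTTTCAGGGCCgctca
H1-2: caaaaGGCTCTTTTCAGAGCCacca
H1-3: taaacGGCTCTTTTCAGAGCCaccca
H1-4: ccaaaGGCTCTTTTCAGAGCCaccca
H4C14: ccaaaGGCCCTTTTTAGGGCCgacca

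Of the 70 replication-dependent histone genes, 45 had a UMI and 8 passed the filter on low counts. Of these 8, 5 were higher in CEL-seq2 and none in LAST-seq, and 4 and 0 beyond length, GC and level. H1-2, H1-3, H1-4 and H4C14 passed the filter through their UMIs in CEL-seq2 alone, which fixed their direction, so these counts describe the tested genes and give no support to a direction of the family. The summed level of the family was 42.8 and 86.1 CPM in LAST-seq against 1013 and 1454 in CEL-seq2, and 61.4 against 1734 in the lysate libraries. H4C3, a core histone H4 gene (chr6:26103933-26104337, + strand, GRCh38), carried most of those in CEL-seq2. It gave 11 and 49 UMIs in the LAST-seq replicates and 1054 and 1551 in the CEL-seq2 replicates, so that the assays did not overlap. Its adjusted log2 ratio was -5.22 ± 0.58 (SE, n = 2 libraries per assay, edgeR adjusted p = 0.000502). The lysate libraries gave 15 UMIs by LAST-seq and 1287 by CEL-seq2. H4C3 was sequenced 21.1 and 26.1 times per UMI in the LAST-seq libraries and 2.2 times in CEL-seq2 replicate 1. All genes together were read 4.83, 4.48 and 2.71 times in these libraries, and the part of this in the result was not tested.

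H1-2, H1-3 and H1-4 are linker histone genes, whose proteins bind DNA between nucleosomes. As the filter fixed their direction, their values add no support to that of H4C3. H1-2 gave 0 and 4 UMIs in LAST-seq against 176 and 234 in CEL-seq2 (adjusted log2 ratio -6.33 ± 0.70, edgeR adjusted p = 0.0005). H1-4 gave 1 and 4 UMIs against 42 and 76, and H1-3 gave 1 and 0 against 58 and 46. The call of H4C14, with 1 and 2 UMIs against 51 and 5, was lost without either LAST-seq library, with the longest transcript as length, and with the level in the trend. The remaining tested genes, H2AC20, H2AC25 and H2BC8, did not pass the test, with adjusted log2 ratios of -2.37, -1.33 and -1.46. Histone genes of a class share much of their coding sequence, so UMIs may be split among copies.

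Replication-independent histones are made outside S phase from ordinary polyadenylated mRNAs. Of these 12 genes, 1 held the stem-loop in its annotated transcript, H2AX, where it stood 1024 bases before the transcript's end. Beyond length and GC, 4 of the 12 were higher in LAST-seq and 1 was higher in CEL-seq2, and beyond level the counts were 0 and 2. Without LAST-seq replicate 1 or 2, the count for LAST-seq was 1 or 0. The 4 were H2AZ1 and H2AZ2, variants placed at promoters, MACROH2A1, a variant of repressed chromatin, and CENPA, the histone H3 of centromeres. H2AZ1 gave 1637 and 1736 UMIs in LAST-seq against 1174 and 1176 in CEL-seq2, an adjusted log2 ratio of 1.14 ± 0.25 (edgeR adjusted p = 0.0104), and H2AZ2 one of 1.16 ± 0.29. The calls of H2AZ1, H2AZ2 and MACROH2A1 were lost without either LAST-seq library and with the level in the trend. That of CENPA was lost without LAST-seq replicate 2 or CEL-seq2 replicate 2 and with the level.

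The replication-independent pair that encodes the same histone H3.3 protein split between assays. H3-3A gave 15 and 23 UMIs in LAST-seq against 320 and 323 in CEL-seq2, an adjusted log2 ratio of -3.43 ± 0.37 (edgeR adjusted p = 0.000472), and 4 against 134 in the lysate. H3-3B gave 746 and 1111 against 986 and 432, which overlapped and did not pass the test (0.91 ± 0.37, edgeR adjusted p = 0.106). H3-3A has processed copies elsewhere in the genome, so the assignment of its reads is uncertain. H2AX, with the stem-loop inside its transcript, gave 39 and 48 UMIs against 113 and 50 and did not pass the test.

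**Figure D3:**
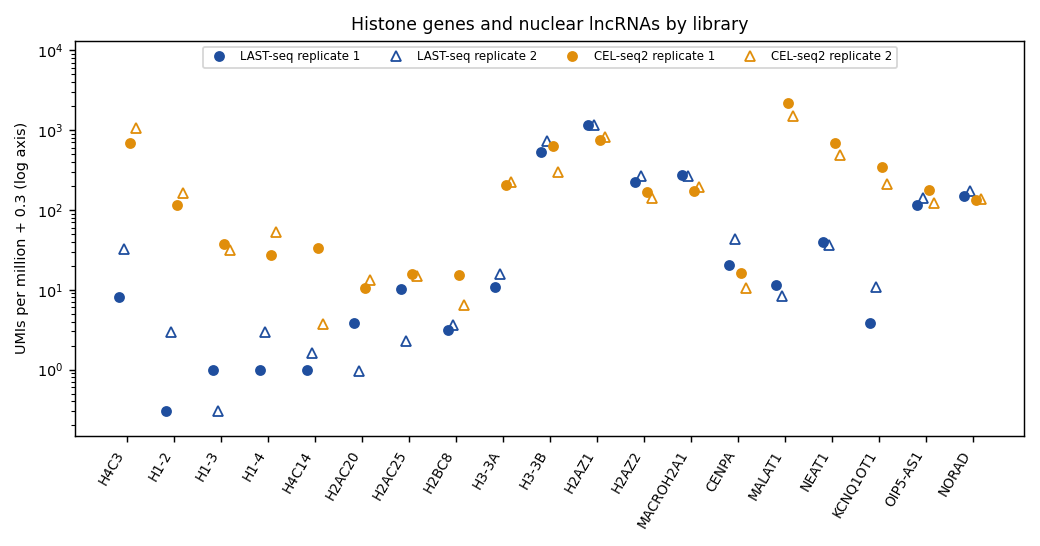
CPM plus 0.3 on a log axis for histone genes and nuclear lncRNAs, with a point for each LAST-seq (blue) and CEL-seq2 (orange) library. H4C3, H1-2, H1-3, H1-4, H3-3A, MALAT1, NEAT1 and KCNQ1OT1 lie higher in both CEL-seq2 libraries than in either LAST-seq library, whereas H3-3B and OIP5-AS1 overlap.

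Few of the small RNAs of the nucleus and cytoplasm that are not polyadenylated in their mature form were counted by either assay. Of 1884 annotated spliceosomal and other small nuclear RNA genes, 290 had a UMI and 4 were tested, of which 3 were higher in CEL-seq2 and none in LAST-seq, and 1 and none beyond level. All 3 passed the filter through CEL-seq2 alone, which fixed their direction. RNU6-1035P, a copy of the U6 RNA of the spliceosome, gave 81 and 41 UMIs in CEL-seq2 and 0 in both LAST-seq libraries, a level at least 39.6-fold below CEL-seq2 against a floor of 3 UMIs over its 2 libraries. RNU4ATAC, the U4atac RNA of the minor spliceosome, gave 2 and 0 against 26 and 16, with the call lost without LAST-seq replicate 2 and with the level in the trend. RNU6-722P was at 0 in 3 libraries and at 40 in CEL-seq2 replicate 2, and its call was lost under most alternatives. With genes at 0 placed at their bound, the median adjusted log2 ratio of the 4 was -4.22.

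Among the other small RNAs (Y RNAs, 7SK, 7SL and microRNA host loci, 13 tested of 4095 annotated), 9 were higher in CEL-seq2 and 2 in LAST-seq, and 4 and 2 beyond level. Without 1 library, the count for CEL-seq2 was 9, 7, 5 and 6 for LAST-seq replicates 1 and 2 and CEL-seq2 replicates 1 and 2 in turn. With few UMIs, members near 0 in an assay passed the filter only through the other, so these counts too are a description. RN7SKP261, a copy of the 7SK RNA that restrains transcription elongation, gave 1 and 0 UMIs by LAST-seq and 21 and 20 by CEL-seq2, a call lost without LAST-seq replicate 2 and beyond level. RN7SL1, the RNA of the signal recognition particle, gave 13 and 16 against 12 and 20 and did not pass the test. RN7SL602P, a copy of that RNA, went the other way with 38 and 43 UMIs against 11 and 9, an adjusted log2 ratio of 2.23 ± 0.56 (edgeR adjusted p = 0.02), a call lost without CEL-seq2 replicate 2. Its annotated transcript holds a run of 30 A. The near-identical loci MIR1244-3 and MIR1244-4 were called in opposite directions, with 39 and 13 UMIs against 1 and 3 for the former and 317 and 322 against 1221 and 965 for the latter. The call of MIR1244-3 was lost without either CEL-seq2 library. These loci and the copies of Y, 7SK and 7SL RNA share sequence, so their counts are uncertain.

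Long noncoding RNAs, which encode no protein, were called higher in CEL-seq2 more often than in LAST-seq. Of 460 tested lncRNA genes, 131 were higher in CEL-seq2 and 36 in LAST-seq, with a median adjusted log2 ratio of -0.75. Beyond level these were 63 and 29, with a median of -0.51. Of the 460, 42 were at 0 in both LAST-seq libraries and passed the filter through CEL-seq2 alone, which fixed their direction. The median of 19.6 UMIs per library was near the filter of 10, so these counts describe the tested genes. The count for CEL-seq2 was 80 without CEL-seq2 replicate 1, and between 96 and 110 without another library. The summed level of all annotated lncRNA genes was 13500 and 13128 CPM in LAST-seq against 48399 and 48296 in CEL-seq2. In the lysate libraries it was 13910 and 44502. Much of these sums in CEL-seq2 came from few loci. The unnamed gene ENSG00000281383 alone gave 13016 and 15103 CPM in CEL-seq2 against 19.7 and 23.8 in LAST-seq. In the CEL-seq2 lysate it gave 21193 CPM. ENSG00000281181, also unnamed, gave 3491 and 2198 CPM in CEL-seq2. Both are annotated on chromosome 21 with the same length of 923 bases and the same GC of 54.8%. They may be copies of each other, so the assignment of their reads is uncertain, and so is their part in the lncRNA sums. Among the tested lncRNAs, antisense lncRNAs counted 21 of 96 higher in CEL-seq2 and 8 in LAST-seq, and LINC genes 22 of 63 and 4. Beyond level these counts were 8 and 6 for antisense lncRNAs and 7 and 4 for LINC genes. Without CEL-seq2 replicate 1, the first counts were 8 and 10, and for LINC genes they were 10 to 14 without any 1 library. In the lysate the medians of these lists were -0.04 and 0.12.

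A list of 6 abundant lncRNAs held some that are retained in the nucleus, at chromatin or in nuclear bodies, and others that are also found or mainly found in the cytoplasm. Of these, 3 were higher in CEL-seq2, MALAT1, KCNQ1OT1 and NEAT1, and 1 was higher in LAST-seq, NORAD. Beyond level the counts were 3 and 0. MALAT1 and KCNQ1OT1 reached the filter on the mean of the 4 libraries only with their CEL-seq2 UMIs. The counts are a description, and the part of the place in the cell was not tested. MALAT1, an RNA of splicing speckles (chr11:65497640-65508073, + strand), is known to be cut at its 3′ end so that it carries no poly-A tail there. It gave 16 and 12 UMIs in LAST-seq against 3344 and 2171 in CEL-seq2, an adjusted log2 ratio of -6.09 ± 0.37 (edgeR adjusted p = 1.2e-05), and 18 against 1031 in the lysate. KCNQ1OT1, which silences an imprinted cluster, gave 5 and 16 UMIs against 532 and 308 (-5.02 ± 0.51), with the call lost when the longest transcript set its length. In the lysate the gap was narrower, at 12 against 36 UMIs.

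NEAT1, the scaffold of paraspeckles, has a short polyadenylated and a long form without a tail, which these tag counts do not separate. It gave 56 and 54 UMIs in LAST-seq against 1057 and 703 in CEL-seq2, with an adjusted log2 ratio of -1.54 ± 0.31, and the call was lost without either LAST-seq library. NORAD, a polyadenylated lncRNA of the cytoplasm, gave 214 and 259 UMIs against 205 and 198 and was called higher in LAST-seq beyond length and GC (1.13 ± 0.30), a call lost without either LAST-seq library and with the level in the trend. OIP5-AS1 overlapped between assays, at 162 and 212 UMIs against 277 and 177. MEG3, an imprinted lncRNA, was at 76 UMIs in CEL-seq2 replicate 2 and at 0 to 2 in the other libraries, and was not called.

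Some lncRNAs were higher in LAST-seq without overlap between the assays. EHBP1-AS1 gave 556 and 525 UMIs in LAST-seq against 32 and 34 in CEL-seq2, an adjusted log2 ratio of 4.60 ± 0.34 (edgeR adjusted p = 4.28e-05). MSANTD2-AS1 gave 93 and 73 against 9 and 5. Whether the strand was used in counting is not given in the sources used here, so reads of an antisense RNA and its partner cannot be told apart. Host genes of small nucleolar RNAs, whose introns give rise to guides of rRNA modification, had 7 of 25 members higher in LAST-seq and 1 in CEL-seq2, and 3 and 1 beyond level. Without LAST-seq replicate 2, the first count was 4. SNHG9 gave 330 and 337 UMIs against 43 and 50 and SNHG25 gave 231 and 154 against 17 and 23. SNHG14, a long RNA of the Prader-Willi imprinted region, went the other way with 2 and 6 against 67 and 45.

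Processed pseudogenes, copies of mRNAs reinserted in the genome, were called in both directions. Of 348 tested copies of ribosomal protein genes, 86 were higher in LAST-seq and 51 in CEL-seq2, and 58 and 66 beyond level. The counts were 56 and 26 or 55 and 24 without LAST-seq replicate 1 or 2. Of 493 other processed pseudogenes, 60 were higher in LAST-seq and 168 in CEL-seq2, with a median of -0.73. Beyond level these were 52 and 106. Of the 493, 42 were at 0 in both LAST-seq libraries and passed the filter through CEL-seq2 alone, which fixed their direction. Single copies reached large ratios. RPS3AP25 gave 181 and 197 UMIs in LAST-seq against 5 and 4 in CEL-seq2, and RPL5P6 gave 19 and 24 against 818 and 1081. The ratio held in the lysate libraries, with 144 against 3 UMIs for RPS3AP25 and 8 against 1554 for RPL5P6. Reads of such copies are hard to tell from those of their parent genes, so these values describe loci to which reads were assigned.

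The mRNAs encoded by the mitochondrial genome were the family furthest on the side of LAST-seq. They specify 13 subunits of the respiratory chain, and most carry short poly-A tails. Their summed level was 150554 and 128712 CPM in LAST-seq against 54484 and 64082 in CEL-seq2. Beyond length and GC, 8 of 13 were higher in LAST-seq and 1 in CEL-seq2 (median 1.45), and 6 and 2 beyond level (median 0.68). In the lysate libraries the summed levels were 172321 and 107709 CPM, and the median was 0.77.

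MT-ND3, a subunit of complex I (chrM:10059-10404, + strand), led with 33076 and 26882 UMIs in LAST-seq against 4569 and 4987 in CEL-seq2. Its adjusted log2 ratio was 2.99 ± 0.21 (edgeR adjusted p = 3.95e-05). MT-CYB, the cytochrome b of complex III, gave 28655 and 26360 UMIs against 8366 and 8795 (2.29 ± 0.19). MT-CO3, a core subunit of complex IV, gave 27516 and 29489 against 9148 and 9516 (2.19 ± 0.18). MT-ND4, MT-ATP6 and MT-ND6 followed with 1.90, 1.75 and 2.10, and all 6 kept their calls beyond level. The calls of MT-CO2 (1.45) and MT-ND1 (1.01) were lost without LAST-seq replicate 1, under TMM and beyond level.

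Among the remaining mitochondrial mRNAs, 1 was called in the other direction and the others were not called. MT-ND2, MT-ND5, MT-CO1 and MT-ND4L did not pass the test, with adjusted log2 ratios from -0.07 to 0.66. MT-ATP8, a subunit of ATP synthase, was higher in CEL-seq2, at 419 and 426 UMIs in LAST-seq against 1527 and 1163 in CEL-seq2 (-1.62 ± 0.27), a call lost without either LAST-seq library. MT-ATP8 and MT-ATP6 lie on one transcript and overlap (chrM:8366-8572 and chrM:8527-9207), so reads in the overlap cannot be assigned to one of them. MT-ND6 is the only mRNA listed here that is encoded on the - strand, where reads of the opposite strand could be counted as well.

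The mitochondrial rRNAs stood opposite to most mRNAs of the same genome. MT-RNR2, the large rRNA of the mitochondrial ribosome, gave 7917 and 7427 UMIs in LAST-seq against 19992 and 23693 in CEL-seq2, an adjusted log2 ratio of -0.90 ± 0.20 (edgeR adjusted p = 0.0116). MT-RNR1, the small rRNA, gave 1311 and 1295 against 3875 and 6317 (-1.36 ± 0.29), with the call lost without either LAST-seq library. Of the 22 tested rRNA and tRNA genes, 4 were higher in each assay, and beyond level 3 in LAST-seq and 10 in CEL-seq2. Without 1 library the counts were 2 to 6 for LAST-seq and 0 to 10 for CEL-seq2. The transfer RNA genes MT-TF, for phenylalanine, and MT-TA, for alanine, were higher in LAST-seq, with 310 and 258 UMIs against 1 and 16, and 116 and 102 against 8 and 7. MT-TI, for isoleucine, was higher in CEL-seq2 at 16 and 16 against 61 and 73, a call lost with no filter and without LAST-seq replicate 1. MT-TF ends next to MT-RNR1 and MT-TI starts next to MT-ND1, so reads of unprocessed transcripts could count for either neighbour.

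Sequencing reads per UMI were compared for the mitochondrial mRNAs and cytosolic ribosomal proteins. In LAST-seq replicate 1, a UMI of a mitochondrial mRNA was read 4.89 times against 4.83 for all genes, and in replicate 2 4.43 against 4.48. In CEL-seq2 replicate 1, the only CEL-seq2 library used with reads, mitochondrial mRNAs were read 4.87 times against 2.71 for all genes and 2.22 for cytosolic ribosomal proteins. The 6 genes with the most UMIs were read 4.33 times there. The part of reads per UMI in the ratios was not tested.

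**Figure D4:**
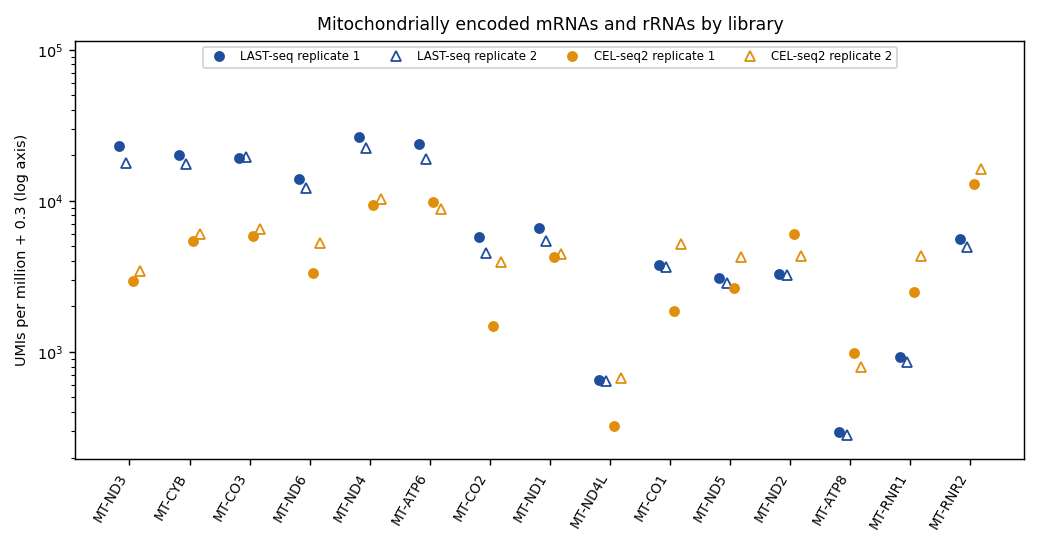
CPM plus 0.3 on a log axis for the 13 mRNAs and 2 rRNAs encoded by the mitochondrial genome, with a point for each library. MT-ND3 to MT-ND1 lie higher in both LAST-seq libraries than in either CEL-seq2 library, whereas MT-ND2, MT-ATP8, MT-RNR1 and MT-RNR2 lie higher in both CEL-seq2 libraries.

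Nuclear genes of the respiratory chain were on the side of LAST-seq too. Of the 37 tested subunits of complex I, which passes electrons from NADH to ubiquinone, 18 were higher in LAST-seq and none in CEL-seq2, with a median adjusted log2 ratio of 1.07. Of 45 subunits of complexes II to V, 27 were higher in LAST-seq and 3 in CEL-seq2 (median 1.10). These counts rested on both LAST-seq libraries. Without replicate 1 they were 9 and 13, and without replicate 2 they were 7 and 15. Beyond level, the counts were 6 for LAST-seq and 2 for CEL-seq2 in complex I, and 8 and 6 in complexes II to V, with medians of 0.25 and 0.32. The lysate libraries gave medians of 1.04 and 1.07 before the level was taken off.

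Among complex I subunits, NDUFB1 gave 825 and 871 UMIs in LAST-seq against 164 and 203 in CEL-seq2 (2.55 ± 0.30, edgeR adjusted p = 0.000697), and NDUFV3 gave 510 and 624 against 267 and 171. COX7A2, of cytochrome c oxidase, gave 1930 and 2268 UMIs against 306 and 461 (edgeR adjusted p = 0.000472). ATP5MK, of ATP synthase, had an adjusted log2 ratio of 2.33 ± 0.30. These 4 were also called beyond level. SDHA, the catalytic subunit of complex II, was the reverse at 55 and 66 UMIs against 219 and 172 (-1.33 ± 0.34), with the call lost without either LAST-seq library. UQCRHL, higher in CEL-seq2 at 93 and 85 against 402 and 497, is a near copy of UQCRH, and its counts are uncertain. Its call was lost without LAST-seq replicate 2.

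Other genes of mitochondria and energy metabolism followed with smaller margins. Of 24 genes of mitochondrial protein import, 8 were higher in LAST-seq and 1 in CEL-seq2 (median 0.87), and 3 and 0 beyond level. The first count was 5 or 4 without LAST-seq replicate 1 or 2. TOMM7, a part of the outer membrane translocase, gave 917 and 1172 UMIs in LAST-seq against 253 and 410 in CEL-seq2. Mitochondrial ribosomal proteins counted 17 of 75 higher in LAST-seq and 4 in CEL-seq2 (median 0.46), and 9 and 4 beyond level, led by MRPS16 at 347 and 406 against 82 and 104. The counts were 12 or 11 and none without LAST-seq replicate 1 or 2. Of 17 subunits of the vacuolar ATPase, the proton pump of lysosomes, 7 were higher in LAST-seq and none in CEL-seq2 (median 0.92), and 3 and 1 beyond level. Its member ATP6V0E1 had an adjusted log2 ratio of 1.98 ± 0.33, and the count was 4 without LAST-seq replicate 2. Of 14 tested genes of glycolysis, 7 were higher in LAST-seq and 1 in CEL-seq2, with a median of 1.02 in single cells and 0.18 in the lysate. Beyond level the counts were 3 and 2, with a median of 0.52. The count for LAST-seq was 3 without its replicate 2. PFKM, a phosphofructokinase, gave 669 and 422 UMIs against 58 and 55 (3.72 ± 0.37, edgeR adjusted p = 0.00031), and GPI, the isomerase before it, 1056 and 972 against 368 and 294. HK1, the hexokinase of the first step, was higher in CEL-seq2 at 55 and 52 against 154 and 138, a call lost under 5 alternatives.

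**Figure D5:**
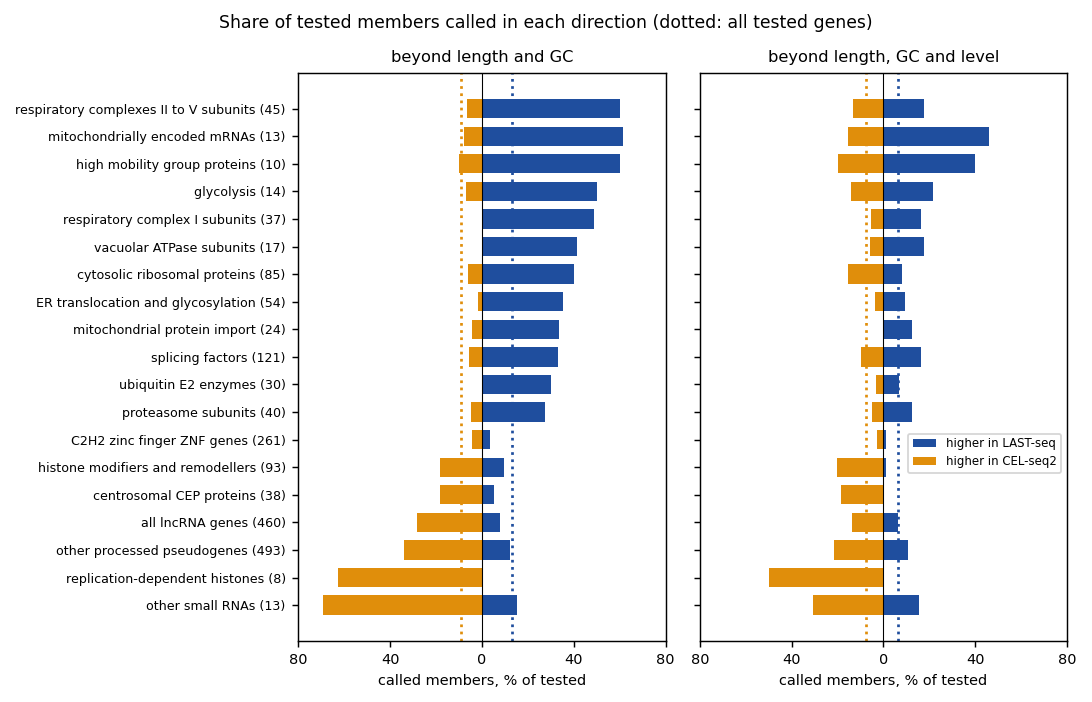
Percentage of tested members called higher in LAST-seq (to the right, blue) or in CEL-seq2 (to the left, orange) for 19 gene families, beyond length and GC in the left panel and also beyond level in the right panel, with dotted lines for all tested genes. In the left panel the respiratory families reach 61.5% for LAST-seq, against 13.2% of all genes. In the 10% of genes with the most UMIs, the share was 40.3%. Most blue bars are shorter in the right panel, where the histone and small RNA bars still point to CEL-seq2.

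Counts for cytosolic ribosomal proteins, which form the ribosome with rRNA, changed with the handling of level. Of 85 tested, 34 were higher in LAST-seq and 5 in CEL-seq2 beyond length and GC (median 0.74). Beyond level the counts were 7 and 13 and the median was -0.09, so the direction of the family flipped. The summed level of the family was 120243 and 122570 CPM in LAST-seq against 82563 and 111092 in CEL-seq2. The count for LAST-seq was 16 or 17 without LAST-seq replicate 1 or 2 and 38 or 43 without a CEL-seq2 library. The count for CEL-seq2 ranged from 0 to 12 over these 4 settings.

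Single ribosomal proteins differed in opposite directions. RPL39, of the large subunit, gave 6703 and 8237 UMIs in LAST-seq against 1541 and 1844 in CEL-seq2 (2.56 ± 0.24, edgeR adjusted p = 0.000249). RPS10, of the small subunit, gave 500 and 406 against 1537 and 2096 (-1.69 ± 0.30), and RPL21 gave 422 and 431 against 1249 and 1554 (-1.17 ± 0.27). The call of RPS10 was lost without LAST-seq replicate 2 and that of RPL21 without either LAST-seq library. All have many processed copies, so part of their reads may have been assigned elsewhere.

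Of 52 translation initiation factors, 6 were higher in LAST-seq (11.5%) and 7 in CEL-seq2 (13.5%), with a median of 0.23. The shares of all tested genes were 13.2% and 9.11%, and their median was 0.19. Beyond level the counts of initiation factors were 2 and 8 and their median was -0.23, so its sign changed. Beyond length and GC, the counts were 2 and 5 without LAST-seq replicate 1 and 2 and 2 without replicate 2. EIF4A1, the helicase that unwinds the 5′ end of mRNAs (chr17:7572824-7579006, + strand), gave 0 UMIs in both LAST-seq libraries, whereas the CEL-seq2 libraries gave 131 and 47, spread over all 10 cells of each. CEL-seq2 exceeded LAST-seq at least 57.8-fold, and the lysate gave 0 UMIs against 28. EIF4A1 passed the filter through CEL-seq2 alone, which fixed its direction. The gene holds small nucleolar RNA genes in its introns, and how reads in overlapping genes were counted is not given in the sources used here. EIF4G2, a scaffold of initiation, was higher in LAST-seq at 2590 and 2517 UMIs against 1504 and 905 (1.70 ± 0.28).

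Some families of protein quality control and the secretory pathway lay on the side of LAST-seq, such as proteasome subunits and ubiquitin-conjugating enzymes. Others did not. Folding chaperones were called in 14.5% of cases for LAST-seq and 11.3% for CEL-seq2, and deubiquitinases in 11.6% and 4.65%. The shares of all tested genes were 13.2% and 9.11%. Of 40 proteasome subunits, 11 were higher in LAST-seq and 2 in CEL-seq2 (median 0.61), and 5 and 2 beyond level. The first count was 6 or 7 without LAST-seq replicate 1 or 2. PSMD3, of the regulatory particle, gave 322 and 327 UMIs in LAST-seq against 111 and 92 in CEL-seq2, whereas its partner PSMD7 gave 32 and 55 against 208 and 244, a call lost without LAST-seq replicate 1. Of 30 ubiquitin-conjugating E2 enzymes, 9 were higher in LAST-seq and none in CEL-seq2 (median 0.86), a count of 2 beyond level or without LAST-seq replicate 2, and of 5 without LAST-seq replicate 1. UBE2J2, an E2 enzyme of the endoplasmic reticulum, gave 186 and 209 UMIs against 57 and 60. The RING protein RBX1 and the adaptor SKP1, subunits of cullin ubiquitin ligases, gave 780 and 1126 against 248 and 205 and 384 and 376 against 210 and 217. The whole cullin list had 7 of 48 members higher in LAST-seq and 4 in CEL-seq2, near the shares of all genes, and 3 and 3 beyond level. Without LAST-seq replicate 1 or 2 the counts were 5 and 1 or 2 and 2.

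Of 54 genes of protein translocation and glycosylation in the endoplasmic reticulum, 19 were higher in LAST-seq and 1 in CEL-seq2, with a median of 0.86 and 0.50 in the lysate. Beyond level the counts were 5 and 2, and without LAST-seq replicate 1 or 2 the first was 11 or 10. SPCS2, of the signal peptidase, gave 249 and 290 UMIs in LAST-seq against 96 and 80 in CEL-seq2. PIGO, which adds ethanolamine phosphate to GPI anchors, was the exception with 3 and 2 UMIs against 41 and 36. It passed the filter through CEL-seq2 alone, which fixed its direction. Vesicle coats and tethers counted 13 of 74 and 2, or 6 and 2 without either LAST-seq library and 4 and 3 beyond level, with EXOC5, of the exocyst, higher in CEL-seq2 at 55 and 58 UMIs against 1034 and 959 (-2.85 ± 0.29). Of 115 TMEM genes, named only for a transmembrane segment, 15 were higher in LAST-seq and none in CEL-seq2. The first share, 13%, is near the 13.2% of all genes, and the counts were 7 and 1 both beyond level and without LAST-seq replicate 2.

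Chromatin and transcription families split. High mobility group proteins, small abundant proteins that bend DNA or bind nucleosomes, had 6 of 10 members higher in LAST-seq and 1 in CEL-seq2 (median 1.27), and 4 and 2 beyond level. Both counts were lower without either LAST-seq library, at 4 and none. HMGA2 gave 276 and 273 UMIs in LAST-seq against 66 and 58 in CEL-seq2 (2.80 ± 0.33, edgeR adjusted p = 0.000697). HMGN2, HMGN3 and HMGN4 had adjusted log2 ratios of 2.15, 1.82 and 2.16 and were also called beyond level. HMGN5 was higher in CEL-seq2 at 115 and 128 against 371 and 401, a call lost without either LAST-seq library, and HMGB1 did not pass the test (-0.06 ± 0.26). Several of these genes have processed copies, so their counts are uncertain.

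Histone modifiers and remodellers, the enzymes that write, erase and move nucleosomes, were called higher in CEL-seq2 more often than in LAST-seq. Before the trend was taken off, 36 of 93 were higher in CEL-seq2 and 1 in LAST-seq. Beyond length and GC the counts were 17 and 9 (median -0.24), and beyond level 19 and 1 (median -0.50). Beyond length and GC, without LAST-seq replicate 1 or 2, the count for CEL-seq2 was 11 or 7, and that for LAST-seq was 1. SMARCC2, a scaffold of SWI/SNF complexes, gave 1 UMI in each LAST-seq library and 39 and 52 in CEL-seq2. It passed the filter through CEL-seq2 alone, which fixed its direction. HDAC10, a deacetylase of polyamines, was the reverse at 166 and 54 UMIs against 14 and 12, a call lost without LAST-seq replicate 1.

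Centrosomal CEP genes had a median of -0.58, with 7 of 38 higher in CEL-seq2 and 2 in LAST-seq, and 7 and 0 beyond level. The count for CEL-seq2 was 2 without LAST-seq replicate 1. CEP295, which turns new centrioles into centrosomes, gave 3 UMIs in each LAST-seq library and 90 and 86 in CEL-seq2 (-3.56 ± 0.56, edgeR adjusted p = 0.00255). CEP350 gave 1 and 20 against 260 and 176, a call lost with DESeq2 and without LAST-seq replicate 1. TPR, the filament protein of the nuclear pore basket, gave 6 and 12 UMIs against 418 and 409 (-4.07 ± 0.40). CEP295, CEP350 and TPR reached the filter only with their CEL-seq2 UMIs, so their values are a description. Nucleoporins and karyopherins as a list counted 6 of 50 higher in LAST-seq (12%) and 1 in CEL-seq2 (2%). The shares of all tested genes were 13.2% and 9.11%. The count for LAST-seq was 2 or 1 without LAST-seq replicate 1 or 2, and beyond level the counts were 1 and 2.

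C2H2 zinc finger genes, a large family of human transcription factors, were called less often once length and GC were taken off. Scaled to total only, 43 of 261 were higher in CEL-seq2 and 3 in LAST-seq. Beyond length and GC the counts were 11 and 9, shares below those of all genes, with a median of -0.05, and beyond level 7 and 3. The count for CEL-seq2 was 5 without LAST-seq replicate 1, and that for LAST-seq was 5 without LAST-seq replicate 2. Their median of 23.75 UMIs per library was below the 44.5 of all tested genes. ZNF428 was an exception in LAST-seq at 191 and 212 UMIs against 33 and 15 (3.30 ± 0.43). Among HOX genes, which set position along the body axis, 2 of 27 were higher in LAST-seq (7.41%) and 3 in CEL-seq2 (11.1%), also beyond level. The shares of all tested genes beyond length and GC were 13.2% and 9.11%. The count for LAST-seq was 4 or 1 without LAST-seq replicate 1 or 2. HOXC8 gave 1 UMI in each LAST-seq library and 47 and 49 in CEL-seq2, and passed the filter through CEL-seq2 alone.

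Splicing factors were higher in LAST-seq in 40 of 121 cases and in CEL-seq2 in 7, and in 20 and 12 beyond level. Without LAST-seq replicate 1 or 2 the first count was 20 or 21 and the second 3 or 4. SRSF6, a serine-arginine rich factor that marks exons (chr20:43457893-43466046, + strand), gave 2650 and 2502 UMIs in LAST-seq against 233 and 139 in CEL-seq2. Its adjusted log2 ratio was 4.51 ± 0.33 (edgeR adjusted p = 4.28e-05), and the lysate gave 1318 against 124. HNRNPUL2 gave 110 and 124 against 46 and 29. DDX39B, a helicase of splicing and mRNA export, was higher in CEL-seq2 at 1 and 3 UMIs against 62 and 51, as was RBM17 at 32 and 41 against 260 and 255. DDX39B passed the filter through CEL-seq2 alone, which fixed its direction.

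Basal transcription genes of RNA polymerase II and Mediator counted 16 of 76 higher in LAST-seq and 5 in CEL-seq2, and 8 and 5 beyond level. The counts were 10 and 3 without LAST-seq replicate 1 and 11 and 3 without replicate 2. TAF15, a protein of the FET family found with TFIID, gave 360 and 450 UMIs in LAST-seq against 93 and 110 in CEL-seq2. GTF2I went the other way at 3 and 19 against 253 and 248, and it has near-identical copies on the same chromosome. It reached the filter only with its CEL-seq2 UMIs. Mitosis and kinetochore genes were called in both directions, 9 in LAST-seq (12.9%) and 5 in CEL-seq2 (7.14%) of 70. These shares were near the 13.2% and 9.11% of all tested genes. Beyond level the balance turned, at 2 and 8. Beyond length and GC, the counts were 11 and 3 without LAST-seq replicate 1 and 3 and 3 without replicate 2. BUB3, of the spindle checkpoint, gave 404 and 899 UMIs against 220 and 251, and CENPE, the kinetochore motor, gave 25 and 35 against 380 and 209.

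The next lists are to be read against all tested genes, of which 13.2% were higher in LAST-seq and 9.11% in CEL-seq2, and 6.49% and 7.57% beyond level. Ribosome biogenesis factors counted 13 of 54 higher in LAST-seq and 3 in CEL-seq2, DNA replication genes 10 of 47 and 1, and tubulins and actins 8 of 36 and 2. Beyond level these counts were 4 and 5, 4 and 3, and 3 and 3. With LAST-seq replicate 1 left out, the counts for LAST-seq were 6, 5 and 5, and with replicate 2 left out they were 5, 6 and 4. Folding chaperones had 9 and 7 of 62 called, and 4 and 8 beyond level. Without 1 library, their counts ranged from 5 to 11 and from 3 to 12. Solute carriers had 14 and 6 of 135, and 8 and 7 beyond level, with 7 in LAST-seq without its replicate 2 and 3 in CEL-seq2 without LAST-seq replicate 1. RAB GTPases of vesicle traffic had 6 and 1 of 38, and 4 and 1 beyond level, with 3 or 2 in LAST-seq without its replicate 1 or 2 and none in CEL-seq2 without any 1 library. Aminoacyl-tRNA synthetases had 4 and 3 of 37, and 2 and 4 beyond level, and without 1 library from 3 to 7 and from 1 to 5. USP34, a deubiquitinase, was higher in CEL-seq2 at 6 and 4 UMIs against 174 and 113, and passed the filter through CEL-seq2 alone. USP22, of the SAGA complex, was higher in LAST-seq at 412 and 484 against 160 and 136. The list of deubiquitinases counted 5 and 2 of 43, and 3 and 2 beyond level or without LAST-seq replicate 1 or 2. Beyond length and GC, this list (11.6% and 4.65%), solute carriers (10.4% and 4.44%) and synthetases (10.8% and 8.11%) lay below the shares of all genes. Folding chaperones (14.5% and 11.3%) lay near them.

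Single protein-coding genes with the most separate libraries were named whatever their family. Ranked by their weakest library pair, among called genes with a UMI in each library and a mean of at least 50, the 8 highest in LAST-seq were CARF, GREM1, ABCG1, SRSF6, CSKMT, ABCA8, PFKM and ELAVL1. The 8 highest in CEL-seq2 were FAM76A, BRSK1, TENM3, BDP1, ARID4A, H4C3, NPIPB5 and ANKRD36C. All 16 stayed called under each alternative that could be run. The 8 highest in CEL-seq2 reached the mean of 50 only with their CEL-seq2 UMIs. Of the 8 highest in LAST-seq, all but SRSF6 and ELAVL1 reached it only with their LAST-seq UMIs. The ranking and the alternatives are thus a description and add no support to a direction of these genes.

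FAM76A (chr1:27725961-27763116, + strand) gave 13 UMIs in each LAST-seq library and 3969 and 3228 in CEL-seq2, an adjusted log2 ratio of -7.53 ± 0.34 (edgeR adjusted p = 1.45e-06). The lysate libraries gave 7 against 1671. BRSK1, a kinase of neuronal polarity, gave 1 and 4 UMIs against 171 and 246, and ARID4A, a chromatin-binding partner of the retinoblastoma protein, 1 and 3 against 187 and 145. BDP1, a subunit of the RNA polymerase III initiation factor TFIIIB, gave 2 and 1 against 276 and 191. TENM3, a teneurin of cell adhesion, gave 19 and 14 against 928 and 4938, with the CEL-seq2 libraries far apart. NPIPB5 (9 and 10 against 807 and 354) and ANKRD36C (4 and 3 against 219 and 178) belong to families of near-identical copies, and their counts are uncertain.

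On the side of LAST-seq, CARF, a transcription factor responsive to calcium (chr2:202912214-202988263, + strand), gave 796 and 849 UMIs against 4 and 6 in CEL-seq2. Its adjusted log2 ratio was 8.54 ± 0.42 (edgeR adjusted p = 2.58e-06). In the lysate, CARF was nearly absent from both libraries, at 6 UMIs by LAST-seq and 0 by CEL-seq2. GREM1, a secreted antagonist of bone morphogenetic proteins, gave 358 and 303 against 8 and 14 (6.66 ± 0.45), and kept its direction in the lysate at 163 against 4. Its annotated transcript of 14575 bases holds a run of 50 A. ABCG1, an exporter of cholesterol, gave 340 and 298 UMIs against 11 and 9, and 293 against 4 in the lysate. ELAVL1, the RNA-binding protein HuR, gave 529 and 561 against 117 and 107 (3.14 ± 0.30).

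ABCG5, a sterol transporter of liver and intestine, was chosen after its values were seen. It gave 16121 and 19819 UMIs in CEL-seq2, in all 10 cells of each library, and 2 and 0 in LAST-seq. In the lysate it was at 0 by CEL-seq2 and 1 by LAST-seq, so the single-cell value was not repeated there. Between the lysate libraries, the ratio beyond length and GC had the same sign for 93.5% of the genes called higher in LAST-seq. For those called higher in CEL-seq2 the share was 93.0%, while 54.2% of all genes had a ratio above 0. Genes nearly absent from both lysate libraries, ABCG5 among them, had no such ratio and were left out of these shares.

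Features of the transcript other than length and GC gave small differences. Across genes, Spearman's rho with the adjusted log2 ratio was -0.07 for the longest run of A, 0.05 for 3′ UTR length in protein-coding genes and 0.02 for the folding energy of the last 200 bases, against 0.23 for the level. Genes share sequence features and depth, so these are descriptions. Of the 129 genes whose longest run of A was 25 to 29 bases, 3.88% were higher in LAST-seq and 19.4% were higher in CEL-seq2 (median -0.39). For the 69 genes with 30 or more the shares were 17.4% and 13% (median 0.38), so the shares did not run one way with the length of the run. Among 5 equal bins of protein-coding genes, the bin with the longest 3′ UTRs, of 3449 bases or more, had a median of 0.41, and the others lay between 0.16 and 0.25. Among 5 bins of all folded transcripts, that with the most stable predicted fold of the last 200 bases had a median of 0.03, and the others lay between 0.18 and 0.28. With or without a canonical poly-A signal in the last 50 bases of the annotated transcript, the median was 0.24 and 0.26.

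By gene class, protein-coding genes made up 85.9% of those higher in LAST-seq and 59.1% of those higher in CEL-seq2. Of the 9396 tested protein-coding genes, 13.2% were higher in LAST-seq and 6.25% in CEL-seq2. Processed pseudogenes, with 785 tested, were called in 17.6% and 25.6% of cases. Clustered protocadherins, the last family examined, had no member above the filter.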

How the data were processed

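The authors aligned reads to GRCh38.p13 with the GENCODE 33 annotation, subsampled them to an equal depth, and counted reads in exons and UMIs collapsed by sequence identity with zUMIs. Base calls came from bcl2fastq 2.20 per the labels. The deposited values are counts per gene and cell, with no normalization. The target depth of that step is not given in the sources used here.

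Spike-in genes were removed and UMIs were summed over the 10 cells of a library, as cells were pooled before amplification. The library was the replicate. The p-values measure only the spread between 2 libraries per assay, which may be technical. Sums were scaled to total UMIs and tested with edgeR 4.0.16 (glmQLFit, glmQLFTest) in R 4.3.3, with Benjamini-Hochberg adjustment over all tested genes. Ratios within a library pair used 0.5 UMI added, so a pair at 0 in both libraries took its sign from the totals. The trend on log10 length and GC used natural splines with 4 degrees of freedom and entered as an offset. Length, GC, gene types, coordinates and sequences came from GENCODE 44 on GRCh38, which held 99.6% of the genes with a UMI. RNAfold 2.7.2 folded the last 200 bases of 10836 transcripts. The capture stretch came from the study's primer list.

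Alternatives were TMM, DESeq2 1.42.0, other filters, totals without mitochondrial genes, cells scaled equally, the longest transcript, the GC of the last 500 bases, each library left out, and the level in the trend. With a library left out, the lone library of its assay was assumed to vary as those of the other assay. On simulated data of 10913 genes for the comparison beyond length and GC, 0 of 67 changes of 2-fold were called, 22 of 67 of 4-fold and 51 of 66 of 8-fold, with 1 false call, so smaller differences were mostly missed. Families were set by gene symbol and gene type. The members and lists were chosen with earlier results of these data known. Genes were named as the 2 called members of a family with the highest and the lowest adjusted ratio, as all members of families of up to 13 tested genes, or as the 8 highest and 8 lowest protein-coding genes.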

Additional observations from a re-analysis of the deposited data

Results flagged for a closer look

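Among genes chosen by the naming rule and called in the single cells, with a mean of at least 50 UMIs in the lysate libraries, the single cells and the lysate went opposite ways for 2. FARS2, CEP43, HSPA1A and MIR1244-3 had fewer UMIs there and also went opposite ways, but were not counted. CDC27, a subunit of the anaphase-promoting complex, had an adjusted log2 ratio of 1.09 in single cells and -0.26 in the lysate, where LAST-seq gave 42 UMIs and CEL-seq2 gave 73. INSIG1, a regulator of cholesterol synthesis, had -1.18 in single cells and 0.92 in the lysate, with 104 UMIs against 75. The difference between single cells and lysate was not tested, as each assay had 1 lysate library. The call of CDC27 was lost without either LAST-seq library and that of INSIG1 without either LAST-seq library or CEL-seq2 replicate 2. At these numbers of UMIs, the precision of the lysate ratios is limited.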

How the results depend on the processing

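No paired analysis was possible because the labels give no replicate numbers that pair libraries of the assays. No named gene changed direction with its call under any alternative. Scaled to total only, genes higher in LAST-seq numbered 684, and 1114 with TMM, 1040 with DESeq2, and 328 to 839 with 1 library left out. Those higher in CEL-seq2 numbered 1873, and 1248 with DESeq2, 2862 with no filter, 983 with a mean of at least 50 UMIs, and 1411 to 1812 with 1 library left out. Beyond length and GC, the 1444 genes higher in LAST-seq became 2477 with no filter, 779 with at least 50 UMIs, 708 with the level in the trend, and 808 to 1351 with 1 library left out. Leaving out LAST-seq replicate 1 gave 395 by total and 889 beyond length and GC, and leaving out replicate 2 gave 328 and 808. The 994 higher in CEL-seq2 became 619 with at least 50 UMIs and 665 to 906 with 1 library left out. Of the genes called beyond length and GC, 675 higher in LAST-seq and 647 higher in CEL-seq2 were also called with the level in the trend, an alternative chosen after seeing the data. The filters change how many genes are tested. The causes of the other changes were not tested. Few UMIs limit what could be called among rare transcripts, and genes under the filter were not tested.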
